A study of Homo sapiens with 2 samples.

Results

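Mesothelial identity genes are the genes by which pathologists and developmental biologists recognise the mesothelium, the cell layer that lines the pleura, pericardium and peritoneum and gives rise to mesothelioma. The set was taken by gene symbol and held 10 genes: the surface and secreted proteins MSLN, UPK3B, UPK1B, ITLN1 and PDPN, the cytosolic protein CALB2, the enzyme HAS1, and the transcription factors WT1, GATA4 and BNC1. Of these, 8 had a named probe, each 1 probe with a value on both arrays, among 8956 genes measured on both. HAS1 and PDPN matched no probe symbol under their current or older names and were not analysed here.

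The study measured total RNA of 2 established human mesothelioma cell lines on 2 arrays of 2 colours, and asked how gene expression changes when CD26, a cell surface dipeptidyl peptidase encoded by DPP4, is lowered or raised. The depletion array set ACC-MESO1 cells transfected against CD26 over control ACC-MESO1 cells (n = 1 array). The labels name the agent as an siRNA in the series text and as an shRNA in the protocol. The transfection array set MSTO-211H cells carrying CD26 in the vector pLNCX2 over control MSTO-211H cells (n = 1 array). All cells grew in an RPMI medium with fetal calf serum and antibiotics, the treatment of the control cells is not stated in the labels, and the labels give the number 3 both to the depleted ACC-MESO1 RNA and to the MSTO-211H control RNA. MSTO-211H is known as a line from a biphasic mesothelioma, a tumour with epithelioid and spindle-shaped components.

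Values are given as the log2 of manipulated divided by control cells, so that a ratio of 1 is 2-fold higher and -1 is 2-fold lower. The depletion array gave a value for 10347 genes and the transfection array for 9359. DPP4 lay in the labelled direction on each array, at -3.92 after depletion and 5.51 after transfection. A gene is called higher or lower here once its log2 ratio reaches 1 or -1. With 1 array per comparison there is no replicate spread and no test. The nearest measure of error is the disagreement between different probes of a gene. Its pooled SD was 0.42 after depletion (566 genes with several probes) and 0.45 after transfection (471 genes). This SD was taken within each array and so holds no spread between cultures, labellings or arrays. The control was in Cy5 on both arrays, so a dye effect of a probe that is equal on both would cancel in the difference between them. Whether it was equal was not tested. A ratio holds no expression level, and the log2 ratios cannot show which of these markers the cell lines expressed.

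Mesothelin, the product of MSLN, is a surface glycoprotein held by a lipid anchor that binds the mucin MUC16 and is a target of antibody therapies in mesothelioma. Calretinin, encoded by CALB2, is a calcium-binding protein, and together with nuclear WT1 it is a standard stain for the diagnosis of epithelioid mesothelioma. WT1 and GATA4 are zinc-finger transcription factors of the embryonic coelomic lining and of the organs formed beside it. Such markers are often lost as a mesothelioma takes on a sarcomatoid, spindle-shaped form.

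The promoters of the measured surface and secreted genes with an entry in the RefSeq promoter table are shown because GATA4, a factor that reads GATA-type letters, is itself a member, and because ITLN1 was past 2-fold on an array while the uroplakin genes UPK1B and UPK3B were not. Of the 10 members, 7 matched that table by symbol. Each window runs from 250 bases before the gene start to 50 bases after it, 5′ to 3′ on the strand of the gene, in GRCh38.p14. Capitals mark matches on either strand to GATA-type letters and to the TEAD-type letters CATTCC. The GATA-type letters searched were AGATAA and the same word ending in G, AGATAG, together with both words beginning with T instead, TGATAA and with the other ending TGATAG. ITLN1 lies at chr1:160885131-160885430 on the minus strand, UPK1B at chr3:119173348-119173647 on the plus strand and UPK3B at chr7:76510302-76510601 on the plus strand.
ITLN1: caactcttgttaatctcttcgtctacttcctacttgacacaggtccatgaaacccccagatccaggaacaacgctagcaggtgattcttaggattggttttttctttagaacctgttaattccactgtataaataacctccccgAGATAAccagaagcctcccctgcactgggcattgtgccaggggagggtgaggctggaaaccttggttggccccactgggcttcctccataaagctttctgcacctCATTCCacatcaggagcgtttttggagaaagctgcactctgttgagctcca
UPK1B: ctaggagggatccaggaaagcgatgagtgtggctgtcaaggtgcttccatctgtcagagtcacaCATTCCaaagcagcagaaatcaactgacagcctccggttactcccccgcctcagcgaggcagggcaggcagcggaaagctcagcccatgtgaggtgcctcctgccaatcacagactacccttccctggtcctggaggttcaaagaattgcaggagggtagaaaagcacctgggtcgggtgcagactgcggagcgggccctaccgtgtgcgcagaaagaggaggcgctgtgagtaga
UPK3B: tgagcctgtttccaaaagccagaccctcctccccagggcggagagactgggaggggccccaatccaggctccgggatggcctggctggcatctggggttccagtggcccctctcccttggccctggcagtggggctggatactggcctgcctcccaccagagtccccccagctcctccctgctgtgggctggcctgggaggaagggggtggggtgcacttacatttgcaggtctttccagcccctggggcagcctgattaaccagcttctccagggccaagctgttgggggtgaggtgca
The ITLN1 window held AGATAA beginning 106 bases before the start and CATTCC beginning 1 base before it. The UPK1B window held CATTCC beginning 186 bases before the start, and the UPK3B window held neither. Of the 13 windows of members, 5 held a GATA-type match and 3 held a TEAD-type match. Most of the GATA-type windows belonged to PDPN, which was not analysed here, and the others to ITLN1 and WT1. Overlapping PDPN windows shared the same AGATAA, so the windows are not separate genes. A WT1 window, not printed here, held both types, and WT1 was short of 2-fold on both arrays. Among all 35116 windows of the table, 25% held a GATA-type match, 14% held CATTCC, and 4.21% held both. In those windows the GATA-type and TEAD-type letters overlapped at 35 places, none of them in the windows printed here. These matches describe the letters in the windows and nothing about binding.

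GATA4 had the largest ratio of the set. This transcription factor of heart, gut, gonad and coelomic epithelium had a log2 ratio of -2.10 in CD26-depleted ACC-MESO1 cells, or 4.30-fold lower, and of 0.95 in CD26-transfected MSTO-211H cells, or 1.93-fold higher. Only 4 of the 10347 genes on the depletion array lay lower, and 4.55% of genes on the transfection array lay higher. The depletion value was 5.03 times the pooled SD between probes, and the transfection value 2.10 times. GATA4 had the sign of DPP4 on both arrays, past 2-fold on the depletion array and short of it on the other. Centring each array on its ribosomal protein genes moved all genes up by 0.35 on the depletion array and by 0.29 on the transfection array. GATA4 was then at -1.75 and 1.25, past 2-fold on both. Of the 28 ribosomal protein genes, only 4 lay above 0 after depletion and 6 after transfection before this centring. After transfection, GATA4 was at 0.85 with each autosome centred on 0 and at 0.94 with a common spread of the arrays, both short of 2-fold.

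MSLN ran the other way. Its log2 ratio was 0.59 after depletion, or 1.5-fold higher, and -1.31 after transfection, or 2.47-fold lower. On the transfection array it had the rank of 41 from the lowest among 9359 genes, while 9.86% of genes on the depletion array lay higher. Its values were 1.40 and 2.89 times the pooled SD between probes. With the ribosomal protein centring MSLN was at 0.94 and -1.01. The MSLN signal was lower in the cells with raised DPP4, and it was higher in the cells with lowered DPP4 by less than 2-fold.

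ITLN1, which encodes intelectin-1, a secreted lectin that binds microbial sugars and is also called omentin, was at 1.38 on the log2 scale in depleted cells, or 2.61-fold higher. After transfection it was -0.16, within the pooled SD of 0.45. In the depleted cells 1.55% of genes lay higher. The values were 3.30 times the pooled SD between probes on the depletion array and 0.35 times on the transfection array.

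The remaining members lay short of 2-fold on both arrays. WT1 was at -0.37 after depletion and 0.57 after transfection, the same pair of signs as GATA4. The uroplakin gene UPK3B, whose membrane protein is found on mesothelium and urothelium, was at -0.01 and 0.66. UPK1B, a tetraspanin uroplakin, was at -0.04 and 0.27. BNC1, which encodes the zinc-finger factor basonuclin 1, was at 0.00 and 0.34. CALB2 was at 0.10 and -0.12, or 0.23 and 0.26 times the pooled SD between probes. In the depleted cells these 5 genes all lay within the pooled SD of 0, and in the transfected cells WT1 and UPK3B lay beyond it. Of all genes, 71% lay within the pooled SD after depletion and 73.5% after transfection, where 5 of 8 and 4 of 8 members did.

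**Figure D1:**
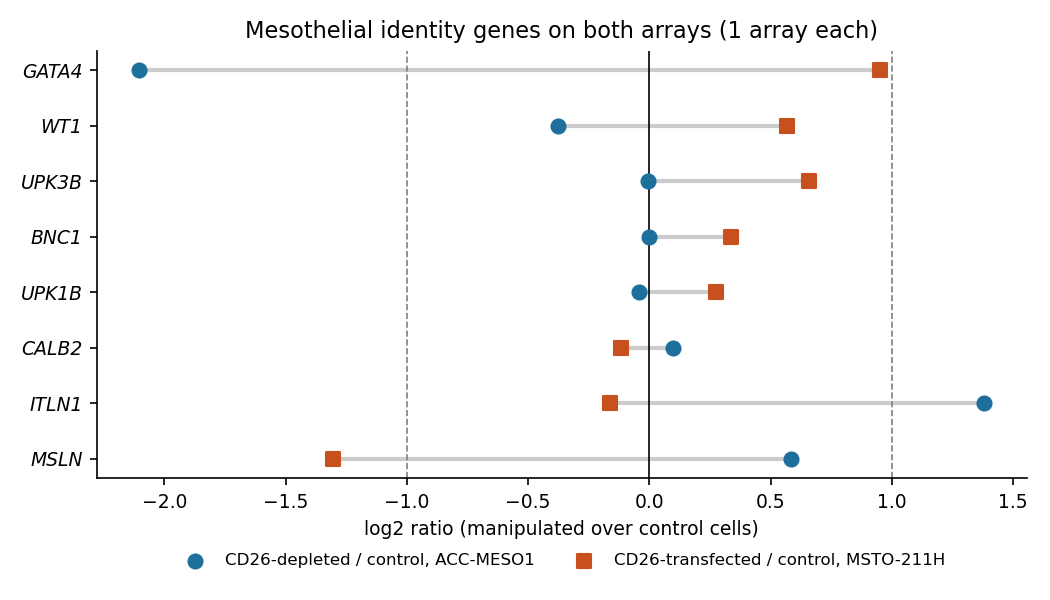
Log2 ratios of the 8 measured mesothelial identity genes (horizontal axis, manipulated over control cells), with a circle for the depletion array, a square for the transfection array and a line joining them; dashed lines mark 2-fold, and there are no error bars because each value is from 1 array. GATA4 runs from -2.10 to 0.95 and MSLN from 0.59 down to -1.31, while CALB2 stays between -0.12 and 0.10.

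After CD26 depletion, 2 of 8 members were past 2-fold, with ITLN1 higher and GATA4 lower, where 4.86% of all 10347 genes were past 2-fold (3.31% higher and 1.56% lower). After CD26 transfection, 1 of 8 was past 2-fold, MSLN on the lower side, where 5.46% of all 9359 genes were (4.09% higher and 1.37% lower). All 8 had values on both arrays, and among the 8956 genes of that kind the shares were 3.56% and 4.28%. With 8 genes, a count of 1 or 2 is a description of those genes and not a shift of the set. The median over the members was -0.0031 after depletion, with 4 above and 4 below 0, against 0.012 over all genes of that array. It was 0.31 after transfection, with 5 above 0 and 3 below, against 0.0072 over all genes and 49.5% of the 8956 genes above 0. The members ranged from -2.10 to 1.38 after depletion and from -1.31 to 0.95 after transfection, and so lay on both sides of 0 on each array.

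Across the arrays, 7 of 8 members had opposite signs, where 46.9% of the 8956 genes did. GATA4, WT1, UPK3B and UPK1B were below 0 after depletion and above 0 after transfection, the sign pattern of DPP4 and of 22.9% of all genes. MSLN, ITLN1 and CALB2 were above 0 and then below it, as 24% of all genes were, and BNC1 was the member without opposite signs. Of the 7, the values of CALB2, UPK3B and UPK1B on the depletion array were within 0.1 of 0. With the ribosomal protein centring 3 of 8 had opposite signs (GATA4, WT1 and MSLN), where 28.6% of all genes did. Beyond the pooled SD between probes on both arrays were 2 of 8 members, GATA4 and MSLN, both with opposite signs, where 8.25% of the 8956 genes were beyond it on both and 3.35% were so with opposite signs. Over the 8 members, which share the same arrays, the log2 ratios of the arrays had a Pearson correlation of -0.66. It was -0.55 without GATA4 and 0.063 over all 8956 genes. The 8 genes are not replicates and were chosen with earlier results known, so the value describes them and was not tested.

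**Figure D2:**
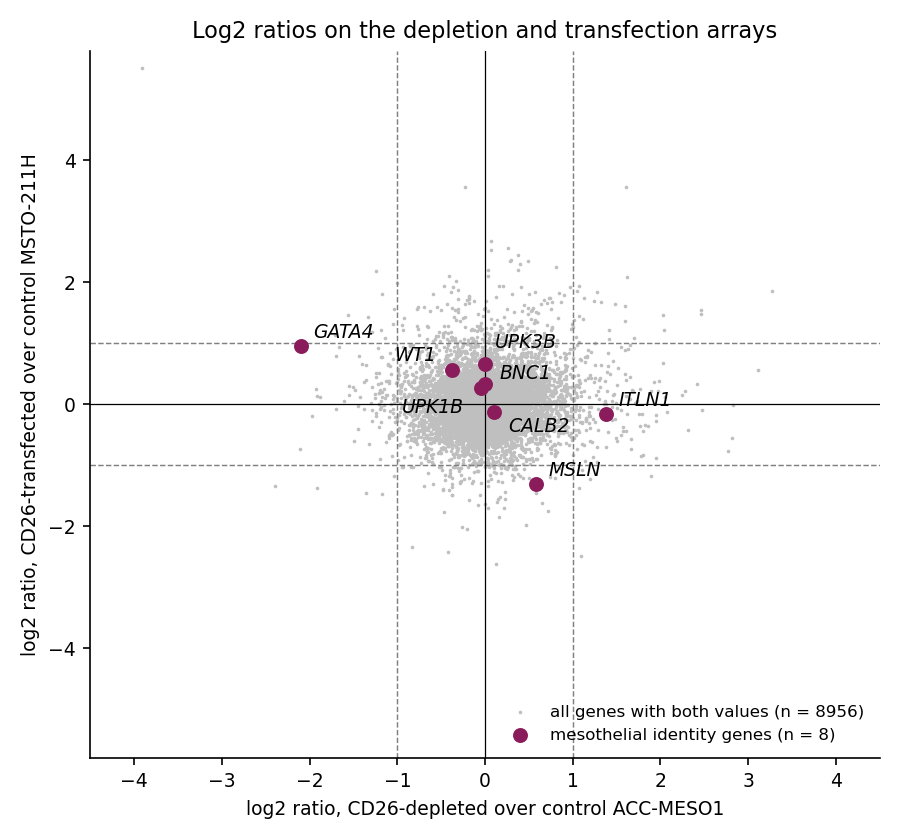
Log2 ratios on the depletion array (horizontal) and the transfection array (vertical), with a grey point for each of the 8956 genes measured on both and a purple point for each of the 8 members; dashed lines mark 2-fold. GATA4 lies far left and MSLN below centre, while most members lie within the grey cloud; DPP4 is the grey point at the upper left (-3.92 and 5.51).

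The difference of the log2 ratios, transfection minus depletion, is free of a constant dye effect of the probe, although it compares different cell lines. For GATA4 it was 3.05, with the rank of 4 from the highest among 8956 genes, where DPP4 had the rank of 1 with 9.43. For MSLN it was -1.89, with the rank of 52 from the lowest. For ITLN1 it was -1.54, with the rank of 104 from the lowest. WT1 followed at 0.94 and UPK3B at 0.66, and 10.9% and 22.4% of genes had a difference at least as large in size. BNC1 was at 0.34, UPK1B at 0.32 and CALB2 at -0.22. From highest to lowest the order of differences was GATA4, WT1, UPK3B, BNC1, UPK1B, CALB2, ITLN1 and MSLN. Neighbours in this order were further apart than 0.62, the pooled SDs of both arrays combined, between GATA4 and WT1 (a gap of 2.11) and between CALB2 and ITLN1 (a gap of 1.33). The other 5 gaps were smaller than 0.62. This yardstick is the spread for the difference of 1 gene, and a gap between genes would have a larger spread.

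Genes with the pair of log2 ratios closest to those of the called members were found by Euclidean distance over the 2 arrays, which is a weak measure with so few values. GATA4 had 3 genes within a distance of 0.5: the Wnt ligand gene WNT7B (-1.71 and 1.14), KLHL9 (-1.70 and 0.79) and the cytochrome P450 gene CYP1B1 (-1.67 and 0.93). MSLN had 59 genes within 0.5, of which the nearest were the G protein subunit gene GNA12 (0.50 and -1.22), CLN6 (0.58 and -1.45) and the laminin chain gene LAMA5 (0.43 and -1.21). ITLN1 had 116, led by SNX24 (1.41 and -0.17), the nuclear receptor gene NR1D2 (1.35 and -0.21) and SOX6 (1.42 and -0.10). GATA4 thus stood in a sparse region of the plot of both arrays, and ITLN1 in a more crowded part of it.

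The paralogs of the members came next, since each member rested on 1 probe and array probes can cross-hybridise among close copies. Of 16 measured after depletion, none was at least 2-fold higher and 1 was at least 2-fold lower, the zinc-finger gene EGR2 (-1.20), with a list median of 0.03. Among the GATA factors, GATA6, a related factor of heart and gut, was at 0.44 after depletion and 0.38 after transfection. GATA2 was at 0.03 and -0.06, GATA3 at 0.46 and -0.51, GATA5 at -0.08 after depletion and GATA1 at 0.39 after transfection. The 4 of these measured in depleted cells lay between -0.08 and 0.46, against -2.10 for GATA4. TRPS1, listed with the GATA factors and cofactors, was at -1.14 after depletion. Cross-hybridisation was not tested, since the ratio of a paralog does not show what the probe of a member binds. ITLN2, the near copy of ITLN1, was at 0.45 after depletion, where ITLN1 was at 1.38. After transfection, the uroplakin gene UPK2 (1.59) was the paralog past 2-fold among 14 measured, while UPK1A was at -0.29 and UPK3A at -0.0031.

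Other mesothelial surface, secreted and lineage genes had a median of 0.20 over 20 genes after depletion, with 3 past 2-fold on the higher side and 1 on the lower side. The higher ones were the tetraspanin-like gene TM4SF1 (1.95), complement C3 (1.55) and the cadherin gene CDH3 (1.35). The lower one was the homeobox gene MEIS1, which had -1.01 after depletion and 0.91 after transfection. Its pair of signs was that of GATA4 and of 22.9% of all genes on both arrays. In the same list MEIS2 was at -0.47 and -0.21, NR2F2 at -0.35 and -0.04, NR2F1 at 0.06 and -0.09, and TCF21 at -0.03 and 0.20. MUC16, the partner of mesothelin, was at 0.52 and 0.15. After transfection the list median was -0.09 over 18 genes, none of them past 2-fold, from the caveolin gene CAV1 (-0.82) to MEIS1 (0.91).

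Mesothelial keratins had medians of 0.06 over 7 genes after depletion and -0.09 over 6 genes after transfection. KRT17 (1.08) was at least 2-fold higher in depleted cells. KRT18 (-1.16), a simple-epithelial keratin, was at least 2-fold lower in transfected cells, where its pairing partner KRT8 was at 0.09. The mesothelial stain KRT5 was at -0.30 and 0.10. KRT7, KRT14 and KRT19 were short of 2-fold on both arrays.

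Known partners and targets of WT1 had a median of 0.20 over 16 genes after depletion, with 3 at least 2-fold higher: the podocyte surface sialomucin gene PODXL (1.66), the vitamin D receptor gene VDR (1.65) and SOX9 (1.05). The lowest was CITED2 (-0.94). After transfection none of 14 was past 2-fold, and the range ran from PODXL (-0.73) to VDR (0.98). The list of GATA factors and cofactors had the serum response factor gene SRF (1.37) and TRPS1 (-1.14) past 2-fold after depletion. It had no gene past 2-fold after transfection.

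Hyaluronan, the glycosaminoglycan that mesothelial cells secrete, is made by the synthases HAS1, HAS2 and HAS3. HAS2 was at -0.46 after depletion, and HAS3 was at 0.49 after depletion and 0.71 after transfection. The link protein gene HAPLN1 (2.29) was the only gene of this list of 16 past 2-fold after depletion, and it had no value on the transfection array. The hyaluronan receptor gene CD44 was at 0.76 and -0.23. Podoplanin itself was not analysed here; among its partners the tetraspanin gene CD9 was at 1.03 after depletion and -0.41 after transfection. The list median of these partners was 0.20 over 9 genes after depletion and -0.27 over 8 genes after transfection.

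Genes of epithelioid mesothelioma had medians of 0.30 over 6 genes and 0.06 over 7 genes on the depletion and transfection arrays, with UPK2 as the member past 2-fold. Genes of sarcomatoid mesothelioma had medians of 0.68 over 11 genes and 0.31 over 10 genes. The collagen cross-linker LOX (1.82) was at least 2-fold higher after depletion, and FAP (-1.76) and ZEB2 (-1.16) were at least 2-fold lower after transfection. On the depletion array 8 of the 11 sarcomatoid genes lay above 0, and FN1 (-0.80) was the lowest. On that array 15 of the 20 other mesothelial genes, 4 of the 6 epithelioid genes and 6 of the 16 hyaluronan genes lay above 0. On the transfection array 7 of the 10 sarcomatoid genes lay above 0, and SNAI2 (0.85) was the highest. Of the 8956 genes on both arrays, 49.5% lay above 0 after transfection. In all, 14 of 95 genes of these related lists (14.7%) were past 2-fold after depletion, 11 higher and 3 lower, where 4.86% of all genes were. After transfection 4 of 82 (4.88%) were, close to the 5.46% of all genes. Among the 77 with values on both arrays, the shares were 13% and 2.6%, where 3.56% and 4.28% of all genes on both arrays were past 2-fold. Of these 77, 49.4% had opposite signs, near the 46.9% of all genes. These lists were drawn up with earlier results of the data known, so their counts describe the listed genes and support nothing further.

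**Figure D3:**
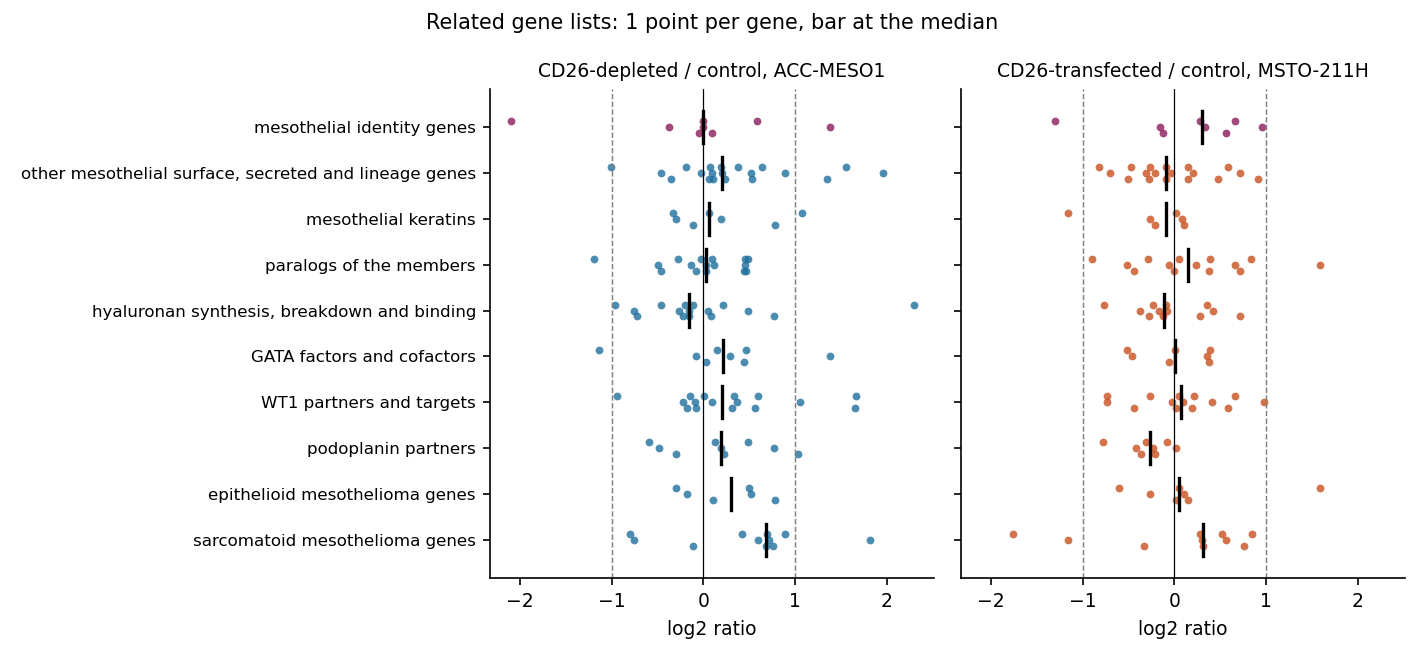
Log2 ratios of the members and of 9 related gene lists on the depletion array (left) and the transfection array (right), with a point for each gene and a black bar at each list median; dashed lines mark 2-fold, and some genes are in more than 1 list. The sarcomatoid list has medians of 0.68 on the left and 0.31 on the right, and the members are spread from -2.10 to 1.38 on the left.

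Markers of other cell types were read on the same arrays. After depletion, the medians were -0.15 for carcinoma markers over 8 genes, -0.03 for fibroblast markers over 8, -0.07 for endothelial markers over 6, 0.40 for myeloid markers over 4 and -0.07 for lymphocyte markers over 3. After transfection they were -0.38 over 5, -0.46 over 6, -0.42 over 5, -0.30 over 3 and -0.01 over 4. MFAP5 (1.96) after depletion and CD3E (1.88) after transfection were the markers past 2-fold. Both comparisons used established mesothelioma cell lines, so these ratios were read gene by gene and not as amounts of other cell types. The part of these markers in the members' values was not tested. In such ratios fewer cells expressing a gene cannot be told apart from less RNA per cell.

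The measured genes nearest to a member in genomic order were read as a background for values that a chromosome block would share. GATA4 was at -2.10 after depletion, while its 10 nearest measured neighbours, 5 on each side, had a median of 0.32 and ran from FDFT1 (-0.87) to BLK (1.67). After transfection its neighbours had a median of -0.26 and ran from -0.52 to 0.30, against 0.95 for GATA4. On the depletion array, the neighbours of ITLN1 had a median of 0.13 and ran from -0.55 to 0.98, against 1.38 for ITLN1, with none past 2-fold. The neighbours of MSLN after transfection had a median of 0.09 and ran from -0.35 to 0.94, against -1.31 for MSLN, with none past 2-fold. The values of these 3 members lay outside the range of their own neighbours on those arrays. They were picked because they were past 2-fold, so this was likely beforehand. A change shared by a chromosome block was not tested. With each autosome centred on 0, GATA4 was at -2.13, ITLN1 at 1.35 and MSLN at -1.31 on the same arrays.

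**Figure D4:**
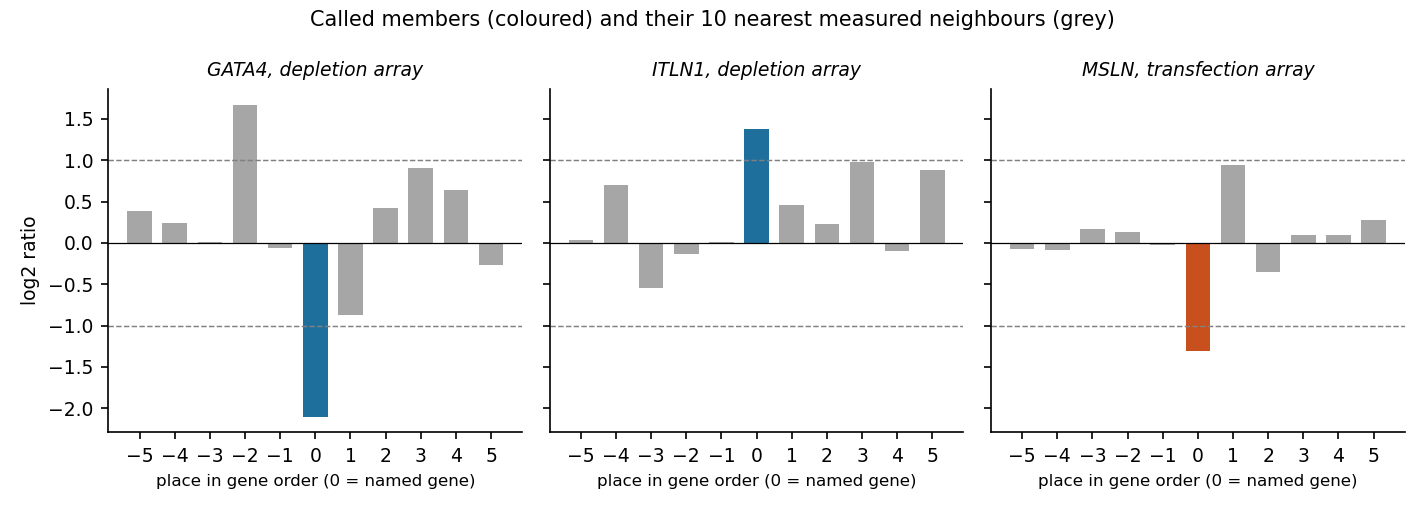
Log2 ratios (vertical) of GATA4 and ITLN1 on the depletion array and of MSLN on the transfection array (coloured bars at place 0), with the 10 nearest measured genes in genomic order as grey bars; dashed lines mark 2-fold, and each bar is a value from 1 array. BLK at 1.67 is the neighbour past 2-fold, on the side opposite to GATA4.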

How the data were processed

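Total RNA of 2 cell lines was measured on 2 arrays of 2 colours, 1 array per comparison, with no dye swap. Per the labels, the deposited values are the authors' normalized log2 ratios of manipulated over control cells. Their normalization, background correction and scanner, and the reason some probes are empty, were not given in the sources used here. Neither intensities nor depths were used. Each array had a probe median of 0. Of 24267 probes, 13395 had a gene symbol in the platform annotation. RefSeq's GRCh38.p14 gene table brought 2285 older symbols up to date, and probes of a gene were averaged. Samples were grouped by the channel labels.

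A gene was called once its log2 ratio reached 1 or -1. No p-value was computed, since n = 1 array, and this number limits the precision. Calculations used Python 3.11.15, numpy 2.4.6 and pandas 2.3.3, and the code was tested on simulated data. The members and gene lists were chosen with earlier results of these data known. Named were all members, DPP4, the genes of related lists past 2-fold (up to 5 each way) and the 3 nearest genes of called members. Of the highest and lowest genes of each list, only some were named. The same holds for the nearest measured genes on each side of a member. Other genes named in the text, such as MUC16, KRT5, KRT8, CD44, the GATA factors and the synthases, were chosen after their values were seen. Alternatives were other centrings, a common spread, other probe rules, listed symbols, genes on both arrays and thresholds of 0.5 and 1.5.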

Additional observations from a re-analysis of the deposited data

How the results depend on the processing

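The count of members past 2-fold after depletion was 2 under all alternatives except the threshold of 1.5, where it was 1 (GATA4), with 1.42% of all genes past it, and that of 0.5, where it was 3, with 22.6%. The count after transfection was 1 (MSLN) under the other settings, but 2 with ribosomal protein genes centred on 0, 4 at a threshold of 0.5 and 0 at a threshold of 1.5, with 8.4%, 22.5% and 1.74% of all genes past each. The count of members with opposite signs was 7 (46.9% of all genes), 3 with ribosomal protein genes centred on 0 (28.6%) and 8 with each autosome centred on 0 (46.3%). The member medians ranged from -0.034 to 0.35 after depletion and from 0.29 to 0.60 after transfection, the upper ends with the ribosomal centring. Each member has 1 probe, so the probe rules changed no member. The alternatives for signs and differences were chosen after seeing the data. No paired analysis was possible because each group has 1 array. Signal over background is unknown, so a dim probe could not be told from a bright probe.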

Other observations

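The nearest measured genes in genomic order, which can differ between the arrays, gave values of their own. SH3GL3, nearest after BNC1, was at 0.59 after depletion and 0.92 after transfection, where BNC1 was at 0.34 after transfection. SSC4D, the nearest gene before UPK3B with a value after transfection, was at 1.39 there, while FGL2 on the other side was at -0.12 and -0.16. Nearest to CALB2, HYDIN was at -0.52 and 0.55 and the zinc-finger gene ZNF23 at 0.68 and -0.28, opposite signs to each other on each array. Nearest to UPK1B, the adhesion gene IGSF11 was at -0.67 and -0.09 and the galactosyltransferase gene B4GALT4 at 0.10 and -0.67. RCN1, nearest before WT1, was at 0.19 and 0.26. FDFT1, the squalene synthase gene nearest after GATA4, was at -0.87 and -0.51.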
